A study of Mus musculus with 16 samples.

Results

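H3K27Ac, the acetylation of lysine 27 of histone H3 that marks active promoters and enhancers, was examined at 3 genes induced by the transcription factor NF-kB, namely Nfkbia, Tnfaip3 and Icam1. The members were taken by position, as all peaks that reached into a window around each gene in the mouse build mm9: chr12:56570000-56615000 for Nfkbia, chr10:18680000-18760000 for Tnfaip3 and chr9:20800000-20850000 for Icam1. The windows held 150 of the 500869 peaks called in 15 animals, and these peaks merged into 15 of the 56941 regions of the genome. The Nfkbia window held 1 merged region, the Tnfaip3 window 8 and the Icam1 window 6.

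Chromatin came from 5 livers of Mdr2-WT mice of strain FVB.129P2 (WT livers), 5 livers of Mdr2-KO mice of strain FVB.129P2-Abcb4tm1Bor/J at the inflamed stage (inflamed livers), and 5 hepatocarcinoma nodules of Mdr2-KO mice (HCC nodules), 1 animal per library. All 15 mice had received clodronate liposomes, which deplete macrophages, at 50 μg per g body weight, 48 h before collection. The WT mice and those with HCC nodules were 14 to 19 months old and the mice with inflamed livers 7 to 8 months old, so that age and disease stage cannot be told apart when inflamed livers are compared with the others. Mdr2 (Abcb4) exports phospholipid into bile, and the deletion was carried by the whole animal. The tissue was not sorted, so that fewer cells of a type and less acetylation per cell cannot be told apart.

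NF-kB waits in the cytoplasm, held by inhibitory IκB proteins, until inflammatory signals such as TNF or interleukin-1 lead to the destruction of the inhibitor and the factor moves into the nucleus. Nfkbia encodes IκBα, the inhibitor that is resynthesised on NF-kB activation and returns the factor to the cytoplasm. Tnfaip3 encodes A20, a ubiquitin-editing enzyme that shuts off signalling upstream of NF-kB, and so both genes are negative feedback targets. Icam1 encodes intercellular adhesion molecule 1, the endothelial and epithelial ligand of leukocyte integrins, which is induced on liver cells during inflammation.

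The promoters are shown because the genes are grouped as NF-kB targets. The 250 bases before the annotated start, from RefSeq on GRCm38.p6, are written 5′ to 3′ on the gene's strand at chr12:55492648-55492897 (minus strand) for Nfkbia, at chr10:19015411-19015660 (minus strand, the first of 2 start sites) for Tnfaip3 and at chr9:21015690-21015939 (plus strand) for Icam1. Capitals mark matches to the NF-kB consensus and to GGAAATTCC on either strand.
Nfkbia: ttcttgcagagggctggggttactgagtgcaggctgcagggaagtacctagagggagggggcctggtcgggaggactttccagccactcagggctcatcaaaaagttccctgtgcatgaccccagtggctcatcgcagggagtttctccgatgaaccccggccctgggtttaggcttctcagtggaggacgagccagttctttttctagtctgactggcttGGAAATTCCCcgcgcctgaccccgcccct
Tnfaip3: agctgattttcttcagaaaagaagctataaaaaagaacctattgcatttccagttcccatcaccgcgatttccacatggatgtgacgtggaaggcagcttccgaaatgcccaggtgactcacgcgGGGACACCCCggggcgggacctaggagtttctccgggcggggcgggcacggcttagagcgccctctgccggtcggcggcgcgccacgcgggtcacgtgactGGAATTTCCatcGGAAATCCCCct
Icam1: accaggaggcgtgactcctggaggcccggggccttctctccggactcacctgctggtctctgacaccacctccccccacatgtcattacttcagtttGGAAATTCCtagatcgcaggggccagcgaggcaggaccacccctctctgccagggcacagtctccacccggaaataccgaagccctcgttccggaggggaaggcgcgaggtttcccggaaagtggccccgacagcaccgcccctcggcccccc
The 9 bases GGAAATTCC, or their reverse complement GGAATTTCC, were present once in each of these 3 sequences. They began 29 bases before the start of Nfkbia, 24 bases before that of Tnfaip3 and 153 bases before that of Icam1. These letters were chosen after the 3 promoters had been read, and they occurred in 94 of 32851 mouse promoter sequences of this length (0.286%). The NF-kB consensus matched 1 site at Nfkbia, overlapping GGAAATTCC, 2 sites at Tnfaip3 and 0 sites at Icam1, and 3.90% of all promoter sequences had a match. The Tnfaip3 matches read GGGACACCCC, 125 bases before the start, and GGAAATCCCC, 12 bases before it. The second annotated start of Tnfaip3 had neither kind of match in its window. These are matches of letters in a reference genome and carry no measurement of binding, and their place relative to the mm9 peaks was not analysed here.

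The lists of peaks differed in length between the groups, and these differences stand behind every comparison at the 3 genes. WT lists held 26375 to 30268 peaks, inflamed lists 35901 to 40909 and HCC lists 26683 to 42736. Inflamed lists were thus longer than every WT list. WT animal 130748 and HCC animal 124711 stood apart from the rest, with the smallest lengths of genome under peaks (109.5 and 92.5 Mb, against 117.5 to 175.3 Mb in the other animals) and the largest shares of peaks at the top scores of 3100 or more (24.2% and 25.2%, against 10.1% to 18.7%). Read counts were not analysed here and the depth of each library is unknown. The authors removed samples as outliers from their principal component analysis of H3K27Ac, and all 15 animals were kept here. Whether animals 130748 and 124711 were among those removed is not known here.

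**Figure D1:**
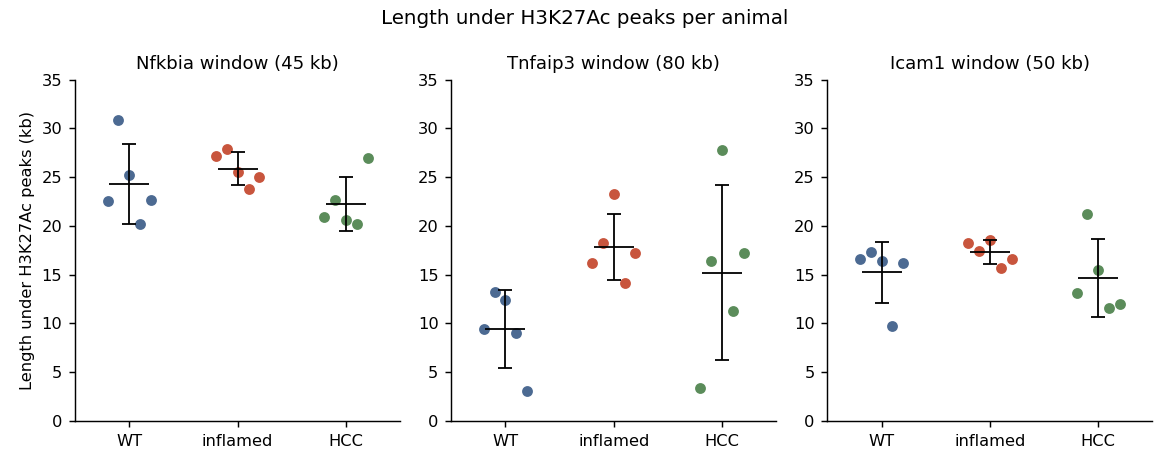
Length under H3K27Ac peaks (kb) in the windows of Nfkbia, Tnfaip3 and Icam1, with 1 point per animal, grouped as WT (livers), inflamed (livers) and HCC (nodules); horizontal lines and bars give the mean ± SD (n = 5). The 5 inflamed livers sit above the 5 WT livers at Tnfaip3, and the groups overlap in every other comparison.

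The Nfkbia window held a merged region that was among the widest of the genome. Peaks covered 54.0% of its window in WT livers, 57.5% in inflamed livers and 49.5% in HCC nodules, which exceeded the covered share in 97.9%, 98.4% and 97.0% of all genome tiles of the same width with a peak in any animal. All peaks merged into 1 domain of 42503 bp, chr12:56558461-56600963, which began before the window, was wider than 99.7% of all merged regions and held a peak in all 15 animals. This width is that of the union over animals. HCC animal 123390 held 1 peak of 37755 bp there, and every other animal held 2 to 5 separate peaks. The strongest peak of the domain scored 3100, a score at which many peaks are tied, in every animal.

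The length under peaks at Nfkbia was 22564, 30880, 25178, 20244 and 22637 bp in the WT livers. It was 27166, 27901, 25545, 23753 and 25007 bp in the inflamed livers. It was 20957, 22634, 20568, 20229 and 26950 bp in the HCC nodules. The ranges of all 3 groups overlapped, and 1 animal in WT (129296) and 1 in HCC (123390) lay well above their groups.

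Inflamed livers had 25874 ± 1669 bp under peaks at Nfkbia and WT livers 24301 ± 4071 bp (SD, n = 5 each), a difference of 1574 bp within the spread between animals (exact permutation test, two-sided, p = 0.452, Benjamini-Hochberg adjusted over genome tiles p = 0.640). HCC nodules had 22268 ± 2776 bp (SD, n = 5). The difference of HCC nodules from inflamed livers was -3607 bp and did not pass adjustment (exact permutation test, p = 0.0476, adjusted p = 0.299). Against WT livers it was -2033 bp (exact permutation test, p = 0.421, adjusted p = 0.875). Of all tiles of this width, the groups did not overlap in 20.2% for inflamed against WT livers, in 6.38% for HCC nodules against inflamed livers and in 2.51% for HCC nodules against WT livers. At Nfkbia they overlapped in all 3 comparisons. HCC animal 123390 was the only nodule that reached the range of the inflamed livers. Without it the difference was -4777 bp (exact permutation test, p = 0.00794, the minimum for 4 against 5, adjusted p = 0.123). The lack of overlap there follows from the choice of the animal left out.

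The outline of the Nfkbia domain differed at its right end. In inflamed livers the last base under a peak lay at 56600939, 56600912, 56600694, 56600880 and 56600620. In HCC nodules it lay at 56595235, 56595513, 56595732, 56595517 and 56596949. In WT livers it lay at 56595837, 56600940, 56600963, 56595800 and 56595529. Every inflamed domain therefore reached further right than every nodule domain, and the WT livers were divided between both positions. Divided into bins of 1000 bp, with a bin counted where at least 500 bp lay under peaks, chr12:56597001-56601000 was under peaks in 5 of 5 inflamed livers, in 0 of 5 HCC nodules and in 1 or 2 of 5 WT livers. Such bins made up 4 of the 31 bins of the window under a peak in either group, against 0.983% of 286296 bins of the genome. These 4 bins adjoin and belong to a single edge, so they are not separate events and the shares are not directly comparable. The opposite pattern was found in 1 bin, chr12:56571001-56572000, under peaks in 5 nodules and in 0 inflamed livers (0.208% of bins of the genome), which lay in a gap between peaks of the inflamed livers. These edges were picked after the peaks had been seen and are given with no test.

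The right end was carried in different ways by different animals. In inflamed animals 148997, 148998 and 148990 it belonged to a single peak of 16823, 16360 and 14212 bp that scored 3100. In inflamed animals 149198 and 149199 its outermost part was a separate peak that ranked above 32.4% and 27.1% of the animal's list by score. In WT animal 129296 it belonged to a peak of 29733 bp, and in WT animal 130747 it was a separate peak of 2356 bp that ranked above 2.35% of its list. In equal lists, cut to the best 26375 peaks of every animal, the last 2 of the 4 bins stayed under peaks in 3 of 5 inflamed livers, in 1 of 5 WT livers and in 0 of 5 nodules.

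**Figure D2:**
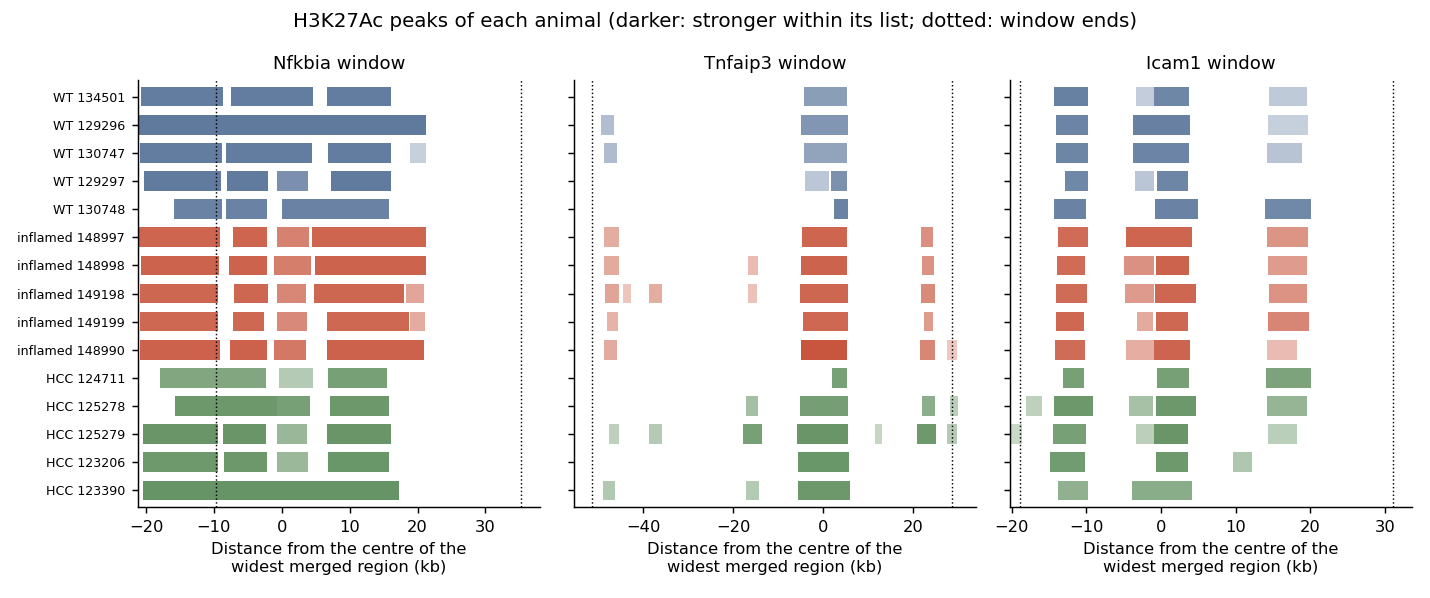
H3K27Ac peaks of each of the 15 animals (rows) in the 3 windows, drawn as bars against the distance in kb from the centre of the window's widest merged region; darker bars have a higher score rank within their animal's list and dotted lines are the ends of the window. Peaks of the inflamed livers reach further right at Nfkbia than those of the nodules, and at Tnfaip3 a peak right of the core is seen in 5 inflamed livers, 2 nodules and 0 WT livers.

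At Tnfaip3, inflamed livers had more length under H3K27Ac peaks than WT livers. The length was 9462, 13190, 12451, 8971 and 3090 bp in the WT livers. It was 16236, 18267, 23277, 14138 and 17258 bp in the inflamed livers. Each inflamed liver had a larger value than each WT liver. The HCC nodules ranged from near the lowest WT liver to above the highest inflamed liver, with 3388, 16445, 27802, 11296 and 17183 bp.

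The means were 17835 ± 3404 bp in inflamed and 9433 ± 3990 bp in WT livers (SD, n = 5 each), a 1.89-fold difference of 8402 bp (two-sided exact permutation p = 0.00794, which is the minimum for 5 against 5, adjusted over tiles p = 0.0366). Inflamed livers were likewise above WT livers without overlap in 17.5% of 16389 tiles of this width, and all tiles whose groups did not overlap shared that adjusted p, so the call at Tnfaip3 was one of many. The size of the difference was above that of 93.6% of the tiles, whose median was 513 bp. Per Mb of genome under peaks, inflamed livers had 102.7 to 145.5 bp in the Tnfaip3 window and WT livers 28.2 to 89.7 bp, again with no overlap (exact permutation test, p = 0.00794, adjusted p = 0.0314). In equal lists the difference was 4046 bp and the groups overlapped (exact permutation test, p = 0.0714, adjusted p = 0.189), and in the 50% of each list with the highest scores it was 6713 bp (exact permutation test, p = 0.0238, adjusted p = 0.109). Without WT animal 130748, which stood apart, the difference was 6817 bp (exact permutation test, p = 0.0159, adjusted p = 0.0468).

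HCC nodules had 15223 ± 8931 bp under peaks at Tnfaip3 (SD, n = 5), the widest spread of the 3 groups. They differed from inflamed livers by -2612 bp (exact permutation test, p = 0.556, adjusted p = 0.915) and from WT livers by 5790 bp (exact permutation test, p = 0.238, adjusted p = 0.761), both within the spread, and such groups did not overlap in 6.75% and 2.65% of tiles of this width. Without HCC animal 124711, which stood apart, the difference from inflamed livers was 346.3 bp and that from WT livers 8749 bp (exact permutation tests, adjusted p = 1.00 and 0.249). The nodules ranged from 1 peak in 124711 and 123206 to 7 peaks in 125279, whose list was the longest of all.

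The Tnfaip3 window held 3 merged regions seen in many animals, called here left, core and right by their coordinates. The core, chr10:18725563-18737344, had a peak in all 15 animals. WT livers had 8304 ± 2961 bp of it under peaks, inflamed livers 10200 ± 287 bp and HCC nodules 9667 ± 3532 bp (SD, n = 5 each). Inflamed and WT livers overlapped there (exact permutation test, p = 0.0397, adjusted over merged regions p = 0.153). WT animal 130748 with 3090 bp and HCC animal 124711 with 3388 bp held only the right-hand part of the core, whereas the other 13 animals held between 8971 and 11593 bp.

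The right region, chr10:18752296-18756469, separated inflamed from WT livers. It was under a peak in 5 of 5 inflamed livers, with 2697, 2605, 3027, 1930 and 3395 bp, and in 0 of 5 WT livers (exact permutation test, p = 0.00794, adjusted p = 0.0498). Of the 44697 merged regions with a peak in either group, 6.14% had a peak in all inflamed and no WT livers, and in 12.0% the inflamed livers were higher without overlap. In HCC nodules the region had a peak in animals 125278 (2763 bp) and 125279 (4174 bp) and in none of the other 3, and the nodules overlapped both other groups (adjusted p = 0.669 for the comparison with inflamed livers and 1 for that with WT livers, exact permutation tests). The peak ranked above 40.2% to 57.7% of the list in inflamed livers and above 56.7% and 83.0% in the nodules that had it. In equal lists the bins from 18754001 to 18756000 stayed under peaks in 5 of 5 inflamed and 0 of 5 WT livers, and in the best 50% of each list in 3 of 5 and 0 of 5.

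The left region, chr10:18682072-18686125, had a peak in 5 inflamed livers, 2 nodules and 2 WT livers. The inflamed livers had 3015 ± 481 bp under it, the WT livers 1129 ± 1546 bp and the nodules 977 ± 1344 bp (SD, n = 5 each). Neither inflamed against WT livers (exact permutation test, p = 0.0556, adjusted p = 0.174) nor HCC nodules against inflamed livers (exact permutation test, p = 0.0159, adjusted p = 0.261) passed adjustment. Its 9 peaks ranked above 15.1% to 32.7% of their lists, and in equal lists its best-covered bins were under peaks in 2 WT livers, 1 inflamed liver and 1 nodule. A further region, chr10:18713535-18717873, had a peak in 0 WT livers, 2 inflamed livers and 3 nodules, and the other 4 regions of the window were seen in 1 to 3 animals, none of them WT livers.

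**Figure D3:**
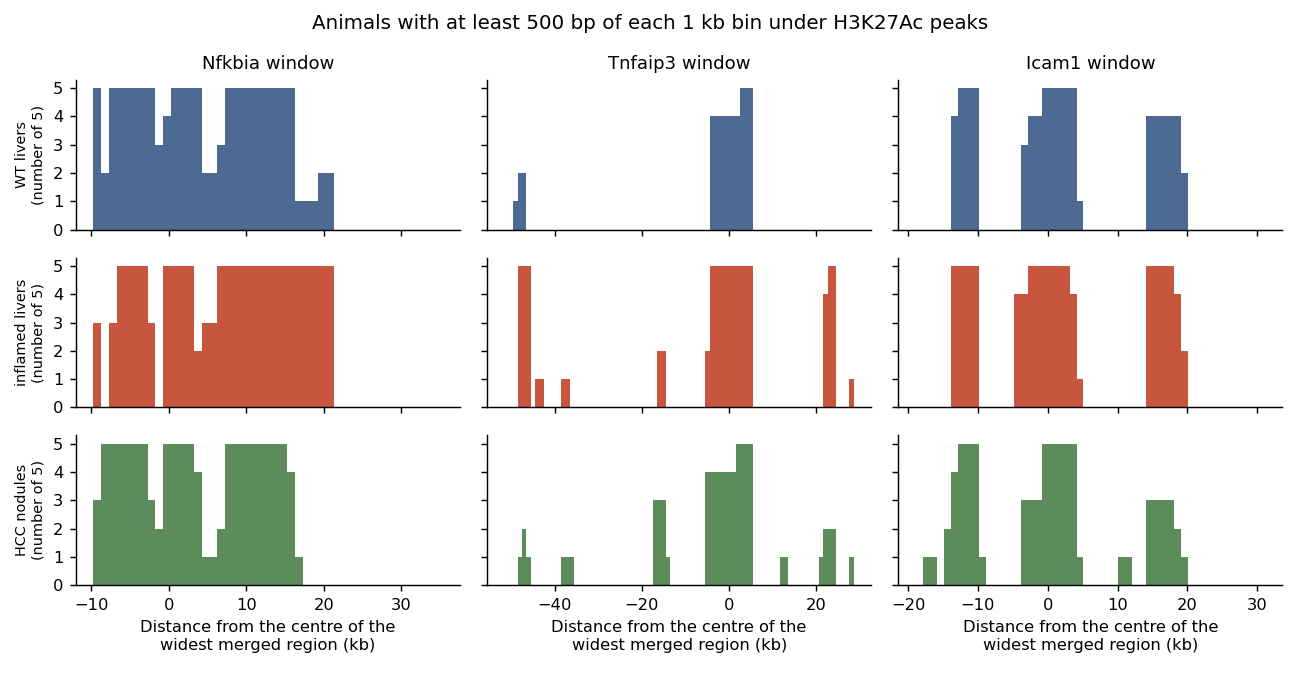
Number of animals (of 5) with at least 500 bp of each 1 kb bin under H3K27Ac peaks, for WT livers, inflamed livers and HCC nodules (rows) in the 3 windows (columns), against the distance in kb from the centre of the widest merged region. At Tnfaip3, 3 bins are filled in 5 inflamed and 0 WT livers, and at Nfkbia the 4 bins at the right end are filled in 5 inflamed livers and 0 nodules.

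In bins of 1000 bp, 3 of the 25 Tnfaip3 bins under a peak in WT or inflamed livers were under peaks in 5 of 5 inflamed and 0 of 5 WT livers, against 4.37% of 237329 bins of the genome. They were 1 bin of the left region, chr10:18685001-18686000, and 2 of the right region. No bin of the Tnfaip3 window showed the reverse, which 0.945% of bins of the genome did. The Nfkbia and Icam1 windows held 0 such bins in either direction.

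At Icam1, the target gene that acts at the cell surface, no comparison of the length under peaks passed its test. Peaks covered 30.5% of the window in WT livers, 34.7% in inflamed livers and 29.4% in HCC nodules, more than in 90.6%, 92.4% and 88.7% of genome tiles of this width. The length was 16623, 17292, 16377, 9700 and 16181 bp in the WT livers. It was 18295, 17434, 18573, 15707 and 16626 bp in the inflamed livers, and 13092, 21236, 15481, 11556 and 12018 bp in the HCC nodules. Apart from WT animal 129297 the WT and inflamed livers lay close together, and 4 of the 5 nodules lay below all inflamed livers.

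Inflamed livers had 17327 ± 1185 bp and WT livers 15235 ± 3122 bp at Icam1 (SD, n = 5 each), a difference of 2092 bp (exact permutation test, p = 0.143, adjusted p = 0.302). Without WT animal 129297 the difference was 708.8 bp. HCC nodules had 14677 ± 3968 bp (SD, n = 5), which differed from inflamed livers by -2650 bp (exact permutation test, p = 0.190, adjusted p = 0.604) and from WT livers by -558 bp (exact permutation test, p = 0.818, adjusted p = 1). HCC animal 125278 was the only nodule not below all inflamed livers. Without it the difference from inflamed livers was -4290 bp (exact permutation test, p = 0.00794, the minimum for 4 against 5, adjusted p = 0.121). The lack of overlap there follows from the choice of the animal left out. Of all tiles of this width, the groups did not overlap in 20.6% for inflamed against WT livers, in 6.38% for HCC nodules against inflamed livers and in 2.59% for HCC nodules against WT livers.

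The Icam1 window had 3 recurrent regions. On GRCm38.p6 the genes next to Icam1 are Mrpl4 and Icam4, and S1pr2 and Icam5 follow them. Which of these genes lie in the mm9 window was not analysed, so a region here need not belong to Icam1. The left region, chr9:20804080-20809755, and the core, chr9:20813929-20823829, each had a peak in all 15 animals, and the right region, chr9:20832761-20839020, in 5 inflamed livers, 4 WT livers and 3 nodules. Within the left region, WT livers had 4067 ± 596.5 bp under peaks, inflamed livers 3946 ± 213.9 bp and nodules 4221 ± 899.1 bp (SD, n = 5 each), with no difference past its test (exact permutation tests, adjusted p from 0.970 to 1). In the core it was 6885 ± 758.9 bp, 8302 ± 1109 bp and 6439 ± 2038 bp in the same order (SD, n = 5 each). The core difference of 1418 bp between inflamed and WT livers did not pass (exact permutation test, p = 0.0556, adjusted p = 0.174), and neither did that of nodules from inflamed livers (-1863 bp, exact permutation test, p = 0.119, adjusted p = 0.669). The left edge of the core, chr9:20814001-20815000, was the single bin of the window under peaks in at least 4 inflamed and at most 1 WT livers (11.5% of bins of the genome). The other 3 regions of the window were each seen in 1 HCC nodule.

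The rank of the peak in the right region of Icam1 varied widely between animals. It ranked above 2.16% to 13.3% of the list in 3 WT livers, above 13.9% to 59.5% in the inflamed livers and above 16.3% and 48.9% in HCC animals 125279 and 125278. The highest ranks were those of WT animal 130748 (70.4%) and HCC animal 124711 (71.6%), the pair of animals that stood apart by their lists and that lacked most of the Tnfaip3 core. No peak was called there in WT animal 129297 and HCC animals 123206 and 123390.

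Peak strength was described by rank, as the share of an animal's own list that scored lower, and no test result is given. Peaks tied at 3100 cannot be ranked among themselves, and the rank of a tied peak is set by how much of its list is tied and not by the locus. The rank of an untied peak also moves with the number of weak peaks in the list. At the Tnfaip3 core the strongest peak reached 3100 or more in 5 of 5 inflamed livers (4 at 3100 and 1, animal 148990, at 3174), 3 of 5 HCC nodules and 1 of 5 WT livers, the WT liver being animal 130748. In the other 4 WT livers it ranked above 43.9% to 62.4% of the list, and in the other 2 nodules above 77.5% and 84.4%. With tied peaks included, the inflamed livers ranked above the WT livers at this core without overlap. The same held in 18.3% of 44697 merged regions, with a missing peak ranked lowest, so the pattern was common. In equal lists, with tied peaks included, the ranks were 76.4% to 99.6% in inflamed livers and 35.6% to 73.55% in WT livers. They did not overlap there either, as in 7.77% of merged regions in equal lists.

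The strongest peak of the Nfkbia domain reached 3100 or more in all 15 animals, so that scores do not order the groups there. At the core of Icam1 it did so in 3 inflamed livers, 3 nodules and 1 WT liver, and at the left region of Icam1 in 1 inflamed liver, 2 nodules and 1 WT liver. The WT liver was animal 130748 in both. The untied peaks of the Icam1 core ranked above 86.4% and 87.3% of the list in 2 inflamed livers and above 72.2% to 77.8% in 4 WT livers, and those of the left region above 80.5% to 81.8% in 4 inflamed livers and above 71.1% to 78.2% in 4 WT livers. With tied peaks included, the inflamed livers ranked above the WT livers without overlap at both Icam1 regions, as in 18.3% of 44697 merged regions. These Icam1 ranks were therefore not particular to the locus. The longer lists of the inflamed livers stand beside these values. In equal lists, with tied peaks included, the ranks at the left region overlapped. They were 69.7% to 76.6% in inflamed livers and 69.3% to 78.25% in WT livers. At the core they were 76.4% to 83.1% and 70.8% to 76.1%, without overlap, as in 7.77% of merged regions in equal lists. The cause of these differences was not tested.

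**Figure D4:**
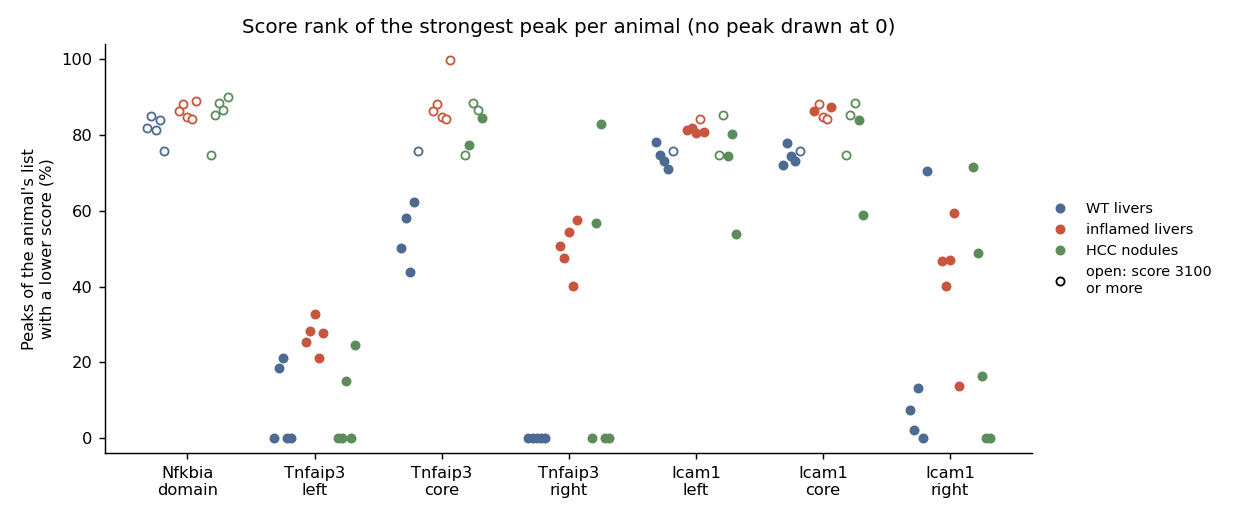
Share (%) of each animal's peaks that scored lower than the strongest peak of the region, for the 7 named regions of the 3 windows. Points are animals, and regions with no peak are drawn at 0. Open points are peaks scoring 3100 or more. They are tied at 3100 with a height set by their list, except for the inflamed animal at 99.7%. At the Tnfaip3 core all 5 inflamed livers and 1 WT liver have open points, and the other 4 WT livers lie between 43.9% and 62.4%.

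Of the bins of 1000 bp, 15 of 45 at Nfkbia, 3 of 80 at Tnfaip3 and 7 of 50 at Icam1 were under peaks in all 15 animals. The mean number of peaks per WT liver, inflamed liver and nodule was 3.2, 4.4 and 3.0 at Nfkbia, 1.6, 4.0 and 3.2 at Tnfaip3, and 3.2, 3.8 and 3.6 at Icam1 (n = 5 each). At Tnfaip3 WT livers had 1 or 2 peaks and inflamed livers 3 to 6, without overlap (exact permutation test, p = 0.00794, adjusted over tiles p = 0.0589). Every inflamed list was longer than every WT list, and the share of tiles with such a gap in peak number is not reported here. Of the merged regions in the windows with a peak in either group, 1 of 11 had groups that did not overlap in covered length for inflamed against WT livers (the right region of Tnfaip3), 0 of 15 for HCC nodules against inflamed livers and 0 of 14 for HCC nodules against WT livers. The shares over the merged regions of the genome with a peak in either group were 15.9%, 4.66% and 1.77%. At an unadjusted exact p under 0.05 there were 2 of 11 regions for inflamed against WT livers (the core and right regions of Tnfaip3, beside 31.2% of the merged regions of the genome with a peak in either group), 2 of 15 for HCC nodules against inflamed livers (the Nfkbia domain and the left region of Tnfaip3, beside 12.7%) and 0 of 14 for HCC nodules against WT livers (beside 7.59%).

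The windows whose covered length varied most alike over the 15 animals lay elsewhere in the genome and are given as a description. For Tnfaip3 they were chr11:22640001-22720000 (Pearson r = 0.961) and chr2:101600001-101680000 (r = 0.950). For Nfkbia they were chr11:36135001-36180000 (r = 0.837) and chr15:68895001-68940000 (r = 0.832), and for Icam1 the closest was chr1:92500001-92550000 (r = 0.876). These were the highest of 16901 to 25594 tiles on other chromosomes, and all tiles of an animal share its library and the length of its list.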

How the data were processed

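H3K27Ac ChIP-seq peak lists of 15 mice (5 WT livers, 5 inflamed livers, 5 HCC nodules) were analysed. The authors aligned reads to mm9, called peaks separately in each animal and deposited the position and the peak caller's score of each peak. The submitters' processing notes name Bowtie 0.12.7 and MACS 1.4. Deposited scores run from 50 to 3233, on a scale not given in the sources used here, and were used only as ranks within a list and to mark peaks at 3100 or more, most of them tied at 3100. The highest peak end on chromosome 1 was 197069010. A control library of WT liver, labelled IgG but titled Input, was not analysed here. Deposited p-values, read counts and depth were not used here. An mm9 annotation was not used here, so the planned lists of other NF-kB pathway genes and cell type markers were not counted, the tissue label was not checked against markers, and peaks were not assigned to promoters, exons or introns.

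Peaks on chromosomes 1 to 19 and X were merged where they overlapped or adjoined. Covered bp of each window was compared by exact two-sided permutation of the difference of means (252 splits of 5 against 5, smallest p 0.00794), with Benjamini-Hochberg adjustment over all genome tiles of the window's width, and that of each merged region over all merged regions with a peak in either group. Tiles and regions were called at an adjusted p under 0.05. Regions with a peak in at least 8 of 15 animals, or whose groups did not overlap, were named, with the 2 most alike tiles per window, of which one is not reported here. The members, windows and lists were chosen with earlier results of these data known. Replicates are separate animals. Other settings tried were lists cut to their best-scoring 50% or to an equal length of 26375 peaks. Windows longer by 10000 bp or shorter by 5000 bp on each side were also tried. So were the number of peaks, bp per covered Mb and merging of peaks up to 1000 bp apart. A peak over at least 50% of a region was required in a further setting, and each animal was left out in turn. Bins of 1000 bp, leaving out both animals that stood apart, and score ranks were added after the data had been seen. Permutation tests of the score ranks were run, and their p-values are not reported here because of the ties. The tests were checked on the measured covered lengths, shuffled between animals within each region, with differences planted in some regions. Such shuffling removes the differences in list length that all regions of an animal share. The NF-kB consensus was searched on both strands of RefSeq promoters (GRCm38.p6). Python 3.11.15, NumPy 2.4.6 and matplotlib 3.10.9 were used.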

Additional observations from a re-analysis of the deposited data

Results flagged for a closer look

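An animal far from the others of its group was sought in 30 groups of 5 animals by the gap to its nearest neighbour over the range of the group. The critical value was 0.71, which marks about 1 in 20 groups of normally distributed values, and 5 groups were marked. Some groups hold animals with 0 bp and the windows contain the regions, so that this rate need not hold here. WT animal 129297 was low at Icam1 in 3 related measures that share the same peaks: 9700 bp in the window, 3021 bp in the left region and 0 bp in the right region. At the core of Tnfaip3, WT animal 130748 was low with 3090 bp and HCC animal 124711 with 3388 bp. The length of genome under peaks was 117.5 Mb in WT animal 129297, 109.5 Mb in WT animal 130748 and 92.5 Mb in HCC animal 124711, the 3 smallest of the 15 animals, and the part of list length in these values was not tested.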

How the results depend on the processing

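Of the 9 window comparisons, the inflamed against WT difference at Tnfaip3 was the one past its threshold. By exact permutation it fell short with the top 50% of each list (6713 bp, adjusted p = 0.109), equal lists (4046 bp, adjusted p = 0.189) and the number of peaks (2.4 peaks, adjusted p = 0.0589), and without WT animal 129297, inflamed animal 148998 or inflamed animal 149198 (adjusted p = 0.0654, 0.0678 and 0.0729), where the groups still did not overlap. It passed per covered Mb, in longer and shorter windows and without each of the other 7 animals. Differences that had not passed changed sign per covered Mb for inflamed against WT at Nfkbia (-12.7) and Icam1 (-1.18), in equal lists for HCC against inflamed at Tnfaip3 (99 bp), with the top 50% of lists at Icam1 for inflamed against WT (-584.4 bp) and HCC against inflamed (96.2 bp), with the number of peaks for HCC against WT at Icam1 (0.4 peaks), and there with both animals that stood apart left out (74.8 bp). The cause of these changes was not tested.

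Leaving out 1 animal at a time gave differences of inflamed from WT livers of 559.7 to 3219 bp at Nfkbia, 6817 to 9342 bp at Tnfaip3 and 708.8 to 2607 bp at Icam1. It gave differences of nodules from inflamed livers of -4777 to -3097 bp, -5757 to 346.3 bp and -4290 to -1870 bp, and of nodules from WT livers of -3204 to -388.2 bp, 2645 to 8749 bp and -2198 to 222.1 bp, in the same order of genes. The signs changed without HCC animal 124711 at Tnfaip3 (346.3 bp against inflamed) and without HCC animals 123206 (222.1 bp) or 123390 (106.6 bp) at Icam1 against WT.

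The count of merged regions without overlap for inflamed against WT was 1, and it was 0 with the top 50% of lists, 2 with peaks up to 1000 bp apart merged, 0 with a peak over at least 50% of the region and 1 to 2 with an animal left out. With an animal left out it was 0 to 2 for nodules compared with inflamed livers and 0 to 1 for nodules compared with WT livers. No paired analysis was possible because the animal numbers are not shared between groups. Precision is limited by 5 animals per group and by peak lists whose depth is unknown.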
